A study of Mus musculus with 10 samples.

Results

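The interferon response genes outside the Ifit family and the interferon-induced GTPases were followed in the terminal ileum of mice after repeated social defeat. The group was set by a list of 42 gene symbols, drawn up with earlier results of these data known though by no cutoff on them, and each gene was read from whichever of its probe sets was brightest on average across the 10 arrays. A probe set that carries the gene's symbol alone was found for 39 of the 42 genes, out of 18193 genes on the array with such a probe set. The genes Isg15, Ifi44 and Oas1g had none and were not analysed here. Of the 39 genes, 38 lay above the filter on low values and were tested among 13666 genes. Mx1 was the gene below that filter, which stood at 4.15 on the log2 scale. The stressed group held 5 male mice of the C57BL/6JJmsSlc strain that were put, over 10 days, into short contacts with an aggressive resident male of the ICR strain. The first contact lasted 5 min after the first bite, and each later one was 0.5 min shorter, down to 0.5 min on day 10. The control group held 5 unstressed males of the same strain. Mice of both groups entered the study at 7 weeks of age, habituated in single cages and fed AIN-93G diet, and food was withdrawn for 3 h ahead of sampling. Each array is taken here as 1 mouse, since the titles number the samples within a group and the labels describe no pooling. The labels describe no separation of the layers of the gut wall, so each value mixes epithelium, muscle and immune cells.

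Interferons are secreted proteins that warn cells of infection. Type I and type III interferons act through Jak kinases on a complex with Stat2 and Irf9, which binds a promoter element called the ISRE (interferon-stimulated response element), while interferon gamma acts mainly through the GAS element. In the gut, epithelial cells answer mainly to type III interferon and immune cells to type I, and microbes keep a basal level of the response going in healthy mice. Its products sense viral nucleic acid, block viral entry and copying, attach the ubiquitin-like protein Isg15 to other proteins, or feed back on the pathway.

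Promoter sequences were available for 32 of the 42 members in a RefSeq table on build GRCm38.p6. The core letters of the ISRE, GAAANNGAAA read on both strands, were found in the 250 bases before a start site in 8 of these 32 members (25.0%) and in 936 of 27025 genes in the table (3.46%). The GAS letters, TTCNNNGAA, were found in 7 of the 32 members (21.9%) and in 8.13% of all genes in the table. Overlapping matches were allowed, and a match is a run of letters, not a measured binding site. The stretches below are those of the 6 tested members that hold the ISRE core, written 5′ to 3′ along the gene with the core matches in capitals. They are shown because they are the part of the list with the textbook element in the searched window, and their differences are given further on.
Oas1a, chr5:120907526-120907560, minus strand: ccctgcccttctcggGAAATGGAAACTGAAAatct
Oas3, chr5:120777710-120777749, minus strand: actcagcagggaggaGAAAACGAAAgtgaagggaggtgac
Bst2, chr8:71537572-71537617, minus strand: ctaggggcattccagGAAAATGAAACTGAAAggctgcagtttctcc
Rsad2, chr12:26456548-26456587, minus strand: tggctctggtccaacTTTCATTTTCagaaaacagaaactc
Trim30a, chr7:104465205-104465244, minus strand: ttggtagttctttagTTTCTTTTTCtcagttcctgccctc
Stat2, chr10:128270261-128270300, plus strand: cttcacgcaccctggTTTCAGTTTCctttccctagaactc
In Oas1a and Bst2 a pair of cores overlap, and in Rsad2, Trim30a and Stat2 the core reads on the opposite strand.

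The array labelled control mouse 1 went against its tissue label. Fabp6, the ileal bile acid binding protein, was at 7.88 on the log2 scale in that array, against 13.95 to 14.10 in stressed mice and 13.88 to 13.93 in the other controls. Hoxd10, a posterior position gene, was at 7.30 there and at most 2.85 in the other controls. Car1, a carbonic anhydrase of the large intestine, was at 14.17 in control mouse 1 and at 13.32 in stressed mouse 4, and at most at 7.41 in the other 8 arrays. Stressed mouse 4 kept Fabp6 at 13.95. Values are therefore given without control mouse 1 and with all arrays, and the leading counts also without both of these mice.

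Most of the interferon response genes were lower in stressed than in control mice, by small amounts. This rested largely on control mice 2 and 3, whose mean deviations over the members were 0.25 and 0.31. Control mice 1 and 5, both at -0.06, lay within the stressed range of -0.14 to 0.02, and control mouse 4 was at 0.03. The nucleic acid sensor Zbp1 was the 1 member to pass the test, and it did so only with control mouse 1 left out. That call was lost when any 1 of 6 further mice was also left out (control mouse 2 or 3, or stressed mouse 1, 3, 4 or 5). With control mouse 1 left out, 32 of 38 tested members had a difference below 0, against 43.8% of all genes tested. Their median difference, stressed minus control, was -0.20 on the log2 scale, and that of all genes was 0.03. With all arrays 30 of 38 members had a difference below 0, against 49.1% of all genes, and the medians were -0.19 and 0.00. The members were chosen with earlier results of these data known, so these counts are a description and carry no test. Summed linear signal of 5 pan-leukocyte markers was 983 to 1356 in stressed and 1189 to 2054 in control mice, and the part of cell makeup in these differences was not tested. In bulk tissue, fewer cells of a type and less of a transcript per cell cannot be told apart.

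**Figure D1:**
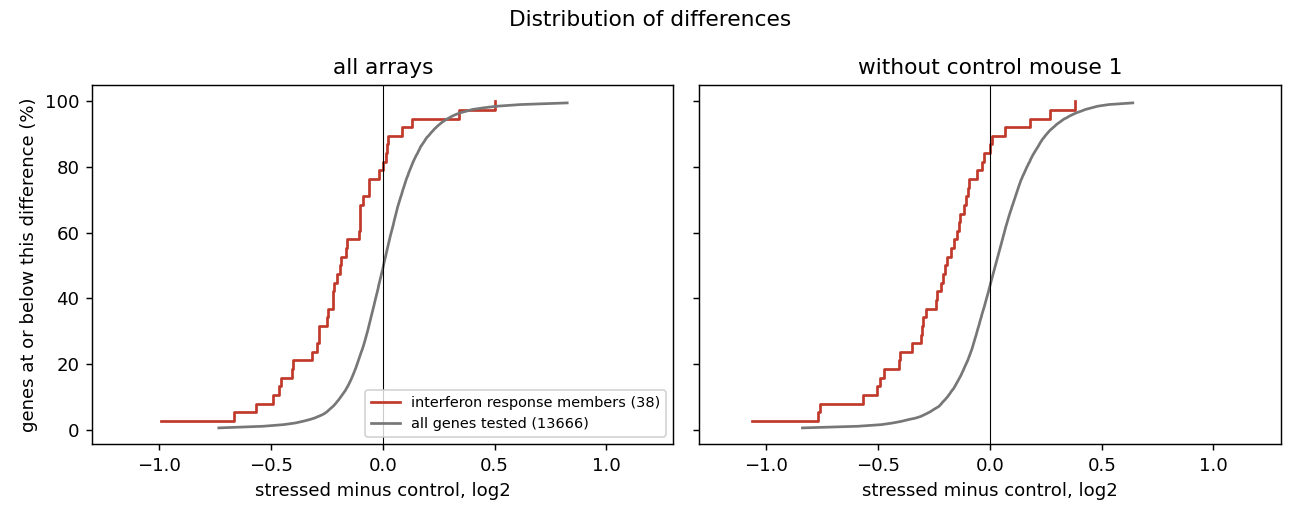
Cumulative share of genes (percent, vertical axis) at or below each stressed minus control difference (log2, horizontal axis) for the 38 tested members (red) and all 13666 genes tested (grey), with all arrays on the left and without control mouse 1 on the right. The grey curve is drawn over its middle 99 percent. The red curve lies to the left of the grey one over most of its length, with medians of -0.19 against 0.00 on the left and -0.20 against 0.03 on the right.

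Single members were tested in limma with p-values adjusted over all 13666 genes. With control mouse 1 left out, 1 of 38 members passed at an adjusted p under 0.05, and it was lower, where 0.534% of all genes were called lower (73 genes, with 36 called higher). Centring the arrays on the median of the tested genes gave 198 genes lower and 44 higher, with Parp9 as the other member called. At an unadjusted p under 0.05, 15 members were lower, where 6.56% of all genes were, and 1 was higher, where 11.4% of all genes were. With all arrays limma called 0 of 38 members and 0 of 13666 genes (0%). At an unadjusted p under 0.05, 8 members were then lower, against 3.96% of all genes, and 2 were higher, against 3.86%. Without both control mouse 1 and stressed mouse 4, 33 members had a difference below 0, 14 were lower at an unadjusted p under 0.05 and limma called 0. Of all genes, 44.2% were then below 0, 5.11% were lower at an unadjusted p under 0.05 and 6 were called.

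The values of all stressed mice lay below those of all control mice for Zbp1, Dhx58 and Herc6, which is 3 of 38 members against 1.12% of all genes tested. Without control mouse 1 the members were Zbp1, Dhx58, Herc6, Parp9, Dtx3l and Trim30a, 6 of 38, against 2.72% of all genes. Another probe set above the filter overlapped for Herc6 in both comparisons, for Zbp1 with all arrays and for Trim30a without control mouse 1. No member had all stressed values above all control values in either comparison, where 1.16% and 4.51% of all genes did.

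**Figure D2:**
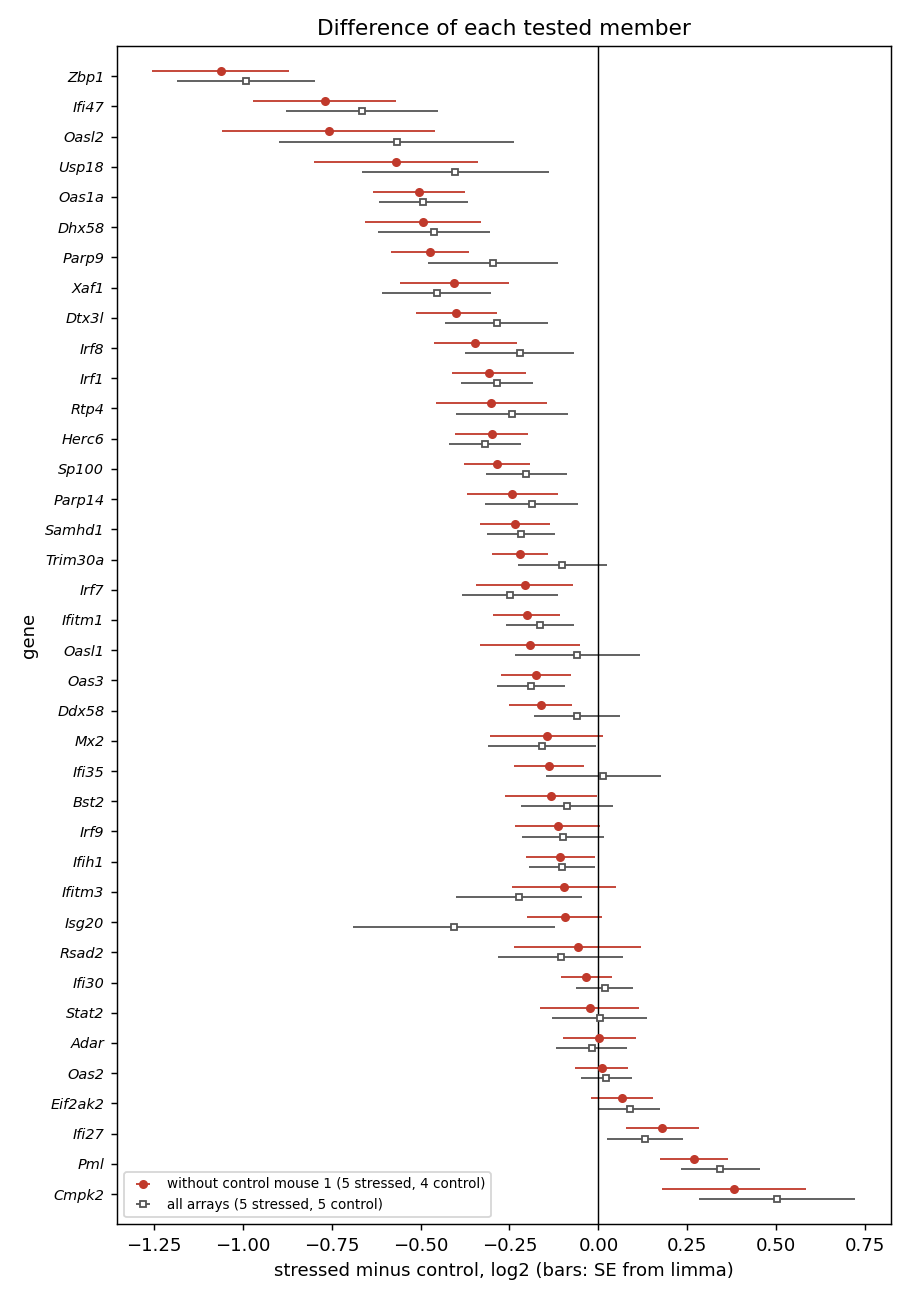
Difference stressed minus control on the log2 scale (horizontal axis) for each of the 38 tested members (vertical axis), with the standard error from limma as a bar. Red circles leave out control mouse 1 and open squares use all arrays. Zbp1 at the top was at -1.06 and Cmpk2 at the bottom at 0.38 without control mouse 1, and Isg20 moved most with that mouse, at -0.09 without it and -0.41 with it.

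The sensors bind foreign or misplaced nucleic acid inside cells. Without control mouse 1, 4 of the 6 had a difference below 0, with a median of -0.13, and 1 was called. Zbp1, which recognises the Z form of RNA and DNA and can start necroptosis, was at 6.11, 6.50, 6.41, 5.92 and 6.15 in stressed mice 1 to 5 and at 6.92, 7.85, 7.44, 6.99 and 6.83 in control mice 1 to 5. Each stressed mouse lay below each control mouse, with a gap of 0.34 between the nearest mice. Without control mouse 1, Zbp1 fell by 1.06 on the log2 scale (SE 0.19; limma adjusted p = 0.0342), to 0.479 times the control level. With all arrays its difference was -0.99 ± 0.19 (SE) and its limma adjusted p 0.261. Another probe set of Zbp1 had 5.13 to 5.58 in stressed and 5.50 to 6.37 in control mice, with differences of -0.72 without control mouse 1 and -0.62 with it. Leaving out stressed mouse 4 as well as control mouse 1 gave -0.99 ± 0.20 (SE) for Zbp1, with a limma adjusted p of 0.0969. Its gene lies at 173206612 to 173218959 on chromosome 2 of build GRCm38.p6.

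Dhx58 encodes LGP2, a helicase that tunes the other RNA helicase sensors. It was at 4.67, 4.46, 4.59, 3.74 and 4.25 in stressed mice and at 4.68, 4.70, 4.89, 4.85 and 4.91 in control mice. The groups were separated by only 0.01, since stressed mouse 1 was nearly level with control mouse 1, and stressed mouse 4 lay under the filter floor. The difference of Dhx58 was -0.49 ± 0.16 (SE; limma adjusted p = 0.155) when control mouse 1 was left out and -0.46 ± 0.16 (SE; limma adjusted p = 0.496) with all arrays.

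The other sensors stayed closer to 0. Ifih1, the long double-stranded RNA sensor MDA5, was at 8.94, 9.24, 9.38, 9.16 and 9.25 in stressed mice and at 9.28, 9.40, 9.36, 9.32 and 9.13 in control mice. Ddx58, the sensor RIG-I, was at 7.80, 7.93, 8.09, 7.86 and 7.89 in stressed mice and at 7.57, 8.13, 8.07, 8.22 and 7.88 in control mice. For both genes the groups overlapped. Ifih1 differed by -0.11 ± 0.10 (SE) without control mouse 1 and by -0.10 ± 0.09 (SE) with it, and another probe set of Ddx58 gave a difference of 0.32, against -0.16 ± 0.09 (SE) for the one used, without control mouse 1. With all arrays these were 0.29 and -0.06 ± 0.12 (SE). The kinase PKR, encoded by Eif2ak2, differed by 0.07 ± 0.09 (SE) and the RNA editing enzyme Adar by 0.00 ± 0.10 (SE) without control mouse 1, and by 0.09 and -0.02 with it. Probe sets of Eif2ak2 and Adar also differed in sign.

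The transcription factors of the list carry the interferon signal to promoters. All 5 had a difference below 0 without control mouse 1, with a median of -0.21, and none was called. Irf1, induced above all by interferon gamma, was at 9.22, 9.30, 9.58, 9.51 and 9.73 in stressed mice and at 9.66, 9.80, 9.82, 9.67 and 9.81 in control mice. Only stressed mouse 5 reached into the control range. Its difference was -0.31 ± 0.10 (SE; limma adjusted p = 0.161) with control mouse 1 left out and -0.28 ± 0.10 (SE; limma adjusted p = 0.511) with it. Irf8, a factor of dendritic cells, macrophages and B cells, was at 8.84, 8.58, 8.44, 8.64 and 8.48 in stressed mice and at 8.32, 9.19, 8.99, 8.65 and 8.94 in control mice. Control mouse 1 was the lowest of all arrays for Irf8, and the difference was -0.35 ± 0.12 (SE; limma adjusted p = 0.161) without that mouse and -0.22 ± 0.15 (SE; limma adjusted p = 0.781) with it.

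Irf7, the amplifier of type I interferon production, was at 7.47, 7.17, 7.44, 7.59 and 7.20 in stressed mice and at 7.79, 7.49, 7.91, 7.68 and 7.24 in control mice. Irf9, the DNA-binding subunit of the ISRE complex, was at 6.43, 6.60, 6.98, 6.68 and 6.85 in stressed mice and at 6.75, 7.03, 6.92, 6.64 and 6.72 in control mice. The ranges of both overlapped between the groups, with differences of -0.21 ± 0.14 (SE) for Irf7 and -0.11 ± 0.12 (SE) for Irf9 without control mouse 1 and of -0.25 and -0.10 with it. Stat2, the partner of Irf9, differed by -0.02 ± 0.14 (SE) without control mouse 1 and by 0.00 ± 0.13 (SE) with it, and its value in stressed mouse 2 was 4.41, nearly that of control mouse 2 at 4.40.

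Enzymes that handle Isg15, ubiquitin and ADP-ribose had a difference below 0 in all 6 tested members, in both comparisons. Their median was -0.35 without control mouse 1, where 5 of the 6 reached an unadjusted p under 0.05 in that direction, against 6.56% of all genes. With all arrays the median was -0.29 and 1 of the 6 did, against 3.96% of all genes. None was called in either comparison. Parp9, an ADP-ribosyltransferase family member, and Dtx3l, a ubiquitin ligase, act as a complex. Their genes are neighbours on chromosome 16 and their annotated spans overlap by 558 bases. Parp9 was at 8.28, 8.72, 8.68, 8.45 and 8.52 in stressed mice and at 8.11, 9.18, 9.11, 8.91 and 8.81 in control mice. Dtx3l was at 8.24, 8.67, 8.55, 8.43 and 8.26 in stressed mice and at 8.26, 9.08, 8.71, 8.85 and 8.68 in control mice. In both genes control mouse 1 was the lowest control and lay within or below the stressed range, and the other 4 controls were above every stressed mouse, though in Dtx3l control mouse 5 at 8.68 barely cleared stressed mouse 2 at 8.67. In the 9 arrays without that mouse Parp9 differed by -0.47 ± 0.11 (SE; limma adjusted p = 0.0639) and Dtx3l by -0.40 ± 0.11 (SE; limma adjusted p = 0.108). With all arrays these were -0.30 ± 0.18 (SE) and -0.29 ± 0.15 (SE), with limma adjusted p of 0.764 and 0.688. Another probe set of Dtx3l gave -0.42 and -0.32.

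Herc6, the main ligase for Isg15 in the mouse, was at 5.17, 5.23, 5.10, 5.31 and 5.33 in stressed mice and at 5.62, 5.40, 5.86, 5.47 and 5.39 in control mice. All stressed mice lay below all controls, by 0.06 at the closest. Its difference was -0.30 ± 0.10 (SE; limma adjusted p = 0.168) when control mouse 1 was left out and -0.32 ± 0.10 (SE; limma adjusted p = 0.446) with it. Another probe set of Herc6 gave -0.79 and -0.66, but the groups overlapped in it. It was at 4.10 to 4.995 in stressed and 4.69 to 5.75 in control mice, or 4.84 to 5.75 in controls other than control mouse 1. With the mean of its probe sets Herc6 was called without control mouse 1 (limma adjusted p = 0.0496).

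Usp18 removes Isg15 from proteins and dampens the type I interferon receptor. It was at 4.79, 5.26, 5.73, 5.03 and 5.19 in stressed mice and at 4.93, 5.91, 6.42, 5.30 and 5.44 in control mice, with overlap. Trim30a, a restrainer of Toll-like receptor signalling in the mouse, was at 5.74, 5.72, 5.80, 5.74 and 5.83 in stressed mice and at 5.39, 5.93, 6.17, 5.85 and 5.98 in control mice. The stressed mice were tightly grouped in this probe set, and only control mouse 1 lay below them. Another probe set of Trim30a overlapped, at 5.37 to 5.87 in stressed mice and 5.72 to 6.14 in controls other than control mouse 1. Its differences were -0.33 without control mouse 1 and -0.23 with it. Parp14, a mono-ADP-ribosyltransferase, was at 7.91, 8.00, 8.06, 7.86 and 7.61 in stressed mice and at 7.85, 8.51, 8.01, 8.08 and 7.92 in control mice. Usp18, Trim30a and Parp14 differed by -0.57 ± 0.23, -0.22 ± 0.08 and -0.24 ± 0.13 (SE) without control mouse 1. With all arrays they differed by -0.40 ± 0.26, -0.10 ± 0.13 and -0.19 ± 0.13 (SE), and none of them passed over all genes in either comparison.

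The oligoadenylate synthetases make the short adenylate chains that switch on RNase L, which degrades RNA in infected cells. Of the 5 tested genes of this family 4 had a difference below 0, with a median of -0.19 in both comparisons, and none was called. Oas1a was at 8.79, 8.72, 8.94, 8.71 and 8.70 in stressed mice and at 9.21, 9.36, 9.63, 9.24 and 8.87 in control mice. Control mouse 5 lay below the highest stressed mouse, and the other 4 controls were above all stressed mice. Control mouse 1 lay within the range of the other controls for this gene. Its difference was -0.50 ± 0.13 (SE; limma adjusted p = 0.0862) with control mouse 1 left out and -0.49 ± 0.12 (SE; limma adjusted p = 0.345) with it. Without control mouse 5 as well, Oas1a was called (limma adjusted p = 0.0269).

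Oasl2 was at 6.67, 6.48, 6.78, 6.35 and 5.83 in stressed mice and at 6.22, 7.56, 7.98, 6.86 and 6.31 in control mice. Its controls spanned 1.76 on the log2 scale, with control mice 2 and 3 on top, and its difference was -0.76 ± 0.30 (SE; limma adjusted p = 0.218) when control mouse 1 was left out and -0.57 ± 0.33 (SE; limma adjusted p = 0.742) with it. Oasl1, which holds back translation of Irf7 in the mouse, was at 7.32, 7.29, 7.78, 7.40 and 7.53 in stressed mice and at 6.99, 7.86, 7.94, 7.47 and 7.35 in control mice, and the groups overlapped. Oasl1 differed by -0.19 ± 0.14 (SE) without control mouse 1 and by -0.06 ± 0.18 (SE) with it. Oas3 and Oas2 differed by -0.17 ± 0.10 (SE) and 0.01 ± 0.07 (SE) without control mouse 1, and by -0.19 ± 0.10 (SE) and 0.02 ± 0.07 (SE) with it.

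Antiviral effectors act on virus particles or their building blocks. Of 9 tested, 8 had a difference below 0 in both comparisons, with medians of -0.13 without control mouse 1 and -0.16 with it, and none was called. Ifitm1 and Ifitm3 hinder the fusion of viruses with cell membranes. Ifitm3 was at 10.00, 9.48, 9.65, 9.63 and 9.16 in stressed mice and at 10.32, 9.84, 9.72, 9.44 and 9.72 in control mice. Ifitm1 was at 8.69, 8.45, 8.60, 8.54 and 8.61 in stressed mice and at 8.59, 8.95, 8.83, 8.51 and 8.82 in control mice. Both overlapped between the groups, with differences of -0.10 ± 0.15 (SE) for Ifitm3 and -0.20 ± 0.09 (SE) for Ifitm1 without control mouse 1, and -0.22 ± 0.18 (SE) and -0.16 ± 0.10 (SE) with it. In the 9 arrays Bst2, which tethers budding particles, differed by -0.13 ± 0.13 (SE), the deoxynucleotide hydrolase Samhd1 by -0.23 ± 0.10 (SE) and Rtp4 by -0.30 ± 0.16 (SE). With all arrays these were -0.09 ± 0.13, -0.22 ± 0.10 and -0.24 ± 0.16 (SE).

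Rsad2 and Cmpk2 are neighbours on chromosome 12, with 12664 bases between them, and both act on pyrimidine nucleotides. Cmpk2, a mitochondrial nucleotide kinase, was at 7.70, 8.08, 8.62, 8.14 and 8.58 in stressed mice and at 7.23, 7.95, 7.79, 8.23 and 7.40 in control mice. Rsad2, the enzyme viperin, was at 7.17, 7.30, 7.52, 7.21 and 7.29 in stressed mice and at 7.60, 7.61, 7.86, 7.14 and 6.82 in control mice. Cmpk2 was thus the member with the highest difference, at 0.38 ± 0.20 (SE; limma adjusted p = 0.344) when control mouse 1 was left out and 0.50 ± 0.22 (SE; limma adjusted p = 0.615) with it. Another probe set of Cmpk2 gave 0.16 and 0.27. Rsad2 differed by -0.06 ± 0.18 (SE) and -0.11 ± 0.18 (SE) and its controls spread from 6.82 to 7.86. Other probe sets of Rsad2 gave -0.10 and -0.46 without control mouse 1, and -0.13 and -0.49 with it.

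Isg20, an RNA exonuclease, rested on control mouse 1. That mouse was at 7.66, against 5.87 to 6.11 in stressed mice and 5.81 to 6.37 in the other controls. The difference of Isg20 was -0.09 ± 0.11 (SE) without control mouse 1 and -0.41 ± 0.28 (SE) with it. The Mx genes encode dynamin-like GTPases that trap virus parts, and common laboratory strains such as C57BL/6 carry defective copies of them. Mx2 overlapped between the groups and differed by -0.15 ± 0.16 (SE) without control mouse 1 and -0.16 ± 0.15 (SE) with it. Mx1, under the filter and not tested, was at 3.89 to 4.13 in stressed and 3.80 to 4.45 in control mice.

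Pml and Sp100 are both proteins of the same nuclear bodies, and their differences had opposite signs. Pml was at 7.11, 7.07, 6.99, 7.00 and 6.82 in stressed mice and at 6.36, 6.89, 6.50, 6.70 and 6.84 in control mice. Of the stressed mice, 4 lay above every control, and stressed mouse 5 lay within the control range. Its difference was 0.27 ± 0.10 (SE; limma adjusted p = 0.177) with control mouse 1 left out and 0.34 ± 0.11 (SE; limma adjusted p = 0.452) with it. Another probe set of Pml gave only 0.05 and 0.11. Sp100 was at 5.02, 4.93, 4.72, 4.94 and 4.68 in stressed mice and at 4.74, 5.21, 5.28, 5.07 and 5.02 in control mice. Control mice 2, 3 and 4 were above all stressed mice, and stressed mouse 1 and control mouse 5 were nearly level. Sp100 differed by -0.28 ± 0.09 (SE; limma adjusted p = 0.155) and -0.20 ± 0.11 (SE; limma adjusted p = 0.731), and another probe set gave -0.05 and -0.04.

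Of the 5 remaining tested genes, 4 had a difference below 0 without control mouse 1 and 2 with all arrays, and none was called. Ifi47 is an interferon gamma-induced gene that itself encodes a GTPase, although it is listed here. Ifi47 was at 7.82, 7.96, 8.18, 7.80 and 7.88 in stressed mice and at 8.16, 9.26, 8.999, 8.46 and 8.06 in control mice. Control mice 2 and 3 stood well above the rest, while control mice 1 and 5 were below the highest stressed mouse. Its difference was -0.77 ± 0.20 (SE; limma adjusted p = 0.0917) when control mouse 1 was left out and -0.66 ± 0.21 (SE; limma adjusted p = 0.452) with it. Xaf1, a promoter of cell death, was at 6.80, 6.89, 7.13, 6.89 and 6.83 in stressed mice and at 7.56, 7.42, 7.79, 7.13 and 6.90 in control mice. Stressed mouse 3 was level with control mouse 4, and Xaf1 differed by -0.40 ± 0.15 (SE; limma adjusted p = 0.204) and -0.45 ± 0.15 (SE; limma adjusted p = 0.490).

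Ifi35 was at 10.53, 10.31, 10.49, 10.31 and 10.32 in stressed mice and at 9.76, 10.58, 10.71, 10.58 and 10.25 in control mice. Ifi30, a thiol reductase of antigen processing, was at 10.16, 10.14, 10.06, 10.16 and 10.23 in stressed mice and at 9.93, 10.12, 10.31, 10.14 and 10.18 in control mice. Control mouse 1 was the lowest array in both, and the other values lay close together. Without that mouse Ifi35 differed by -0.14 ± 0.10 (SE) and Ifi30 by -0.03 ± 0.07 (SE), and with it by 0.01 ± 0.16 (SE) and 0.02 ± 0.08 (SE). Ifi27 differed by 0.18 ± 0.10 (SE) without control mouse 1 and by 0.13 ± 0.11 (SE) with it.

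**Figure D3:**
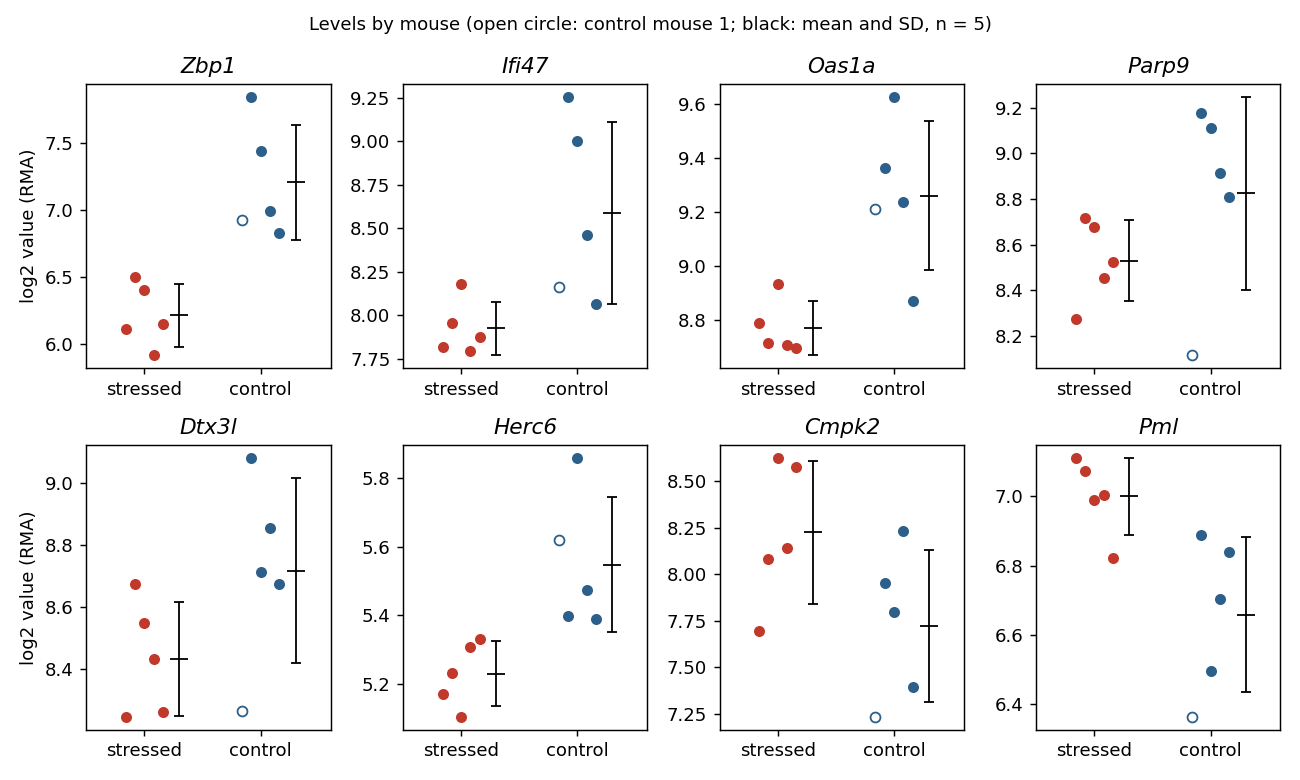
Log2 RMA values (vertical axis) of 8 members in each mouse, stressed mice in red on the left and control mice in blue on the right of each panel, with the mean and SD of 5 mice in black. All stressed values of Zbp1 (5.92 to 6.50) and Herc6 (5.10 to 5.33) lie below all control values, and the open circle of control mouse 1 is the lowest point for Parp9, Cmpk2 and Pml.

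The spread over mice was itself uneven. Control mouse 3 was the highest of the 10 arrays in 18 of 38 members and control mouse 2 in 11, against 14.7% and 9.41% of all genes tested. Control mouse 3 was also the lowest array in 23.1% of all genes, the largest share of any array, and in 1 member. These 2 mice were the 2 highest arrays in 13 members, against 3.37% of all genes. Averaged over the 38 members, the deviation from the mean of the 10 arrays was 0.31 in control mouse 3, 0.25 in control mouse 2, 0.03 in control mouse 4 and -0.06 in control mice 1 and 5, and in stressed mice it ran from -0.14 to 0.02. Control mice 2 and 3 thus stood highest, control mouse 4 lay just above the stressed range, and control mice 1 and 5 lay within it. The SD was larger among controls than among stressed mice in 28 of 38 members without control mouse 1, against 56.1% of all genes. The median SD of the members was 0.15 in stressed mice and 0.21 in the 4 controls.

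**Figure D4:**
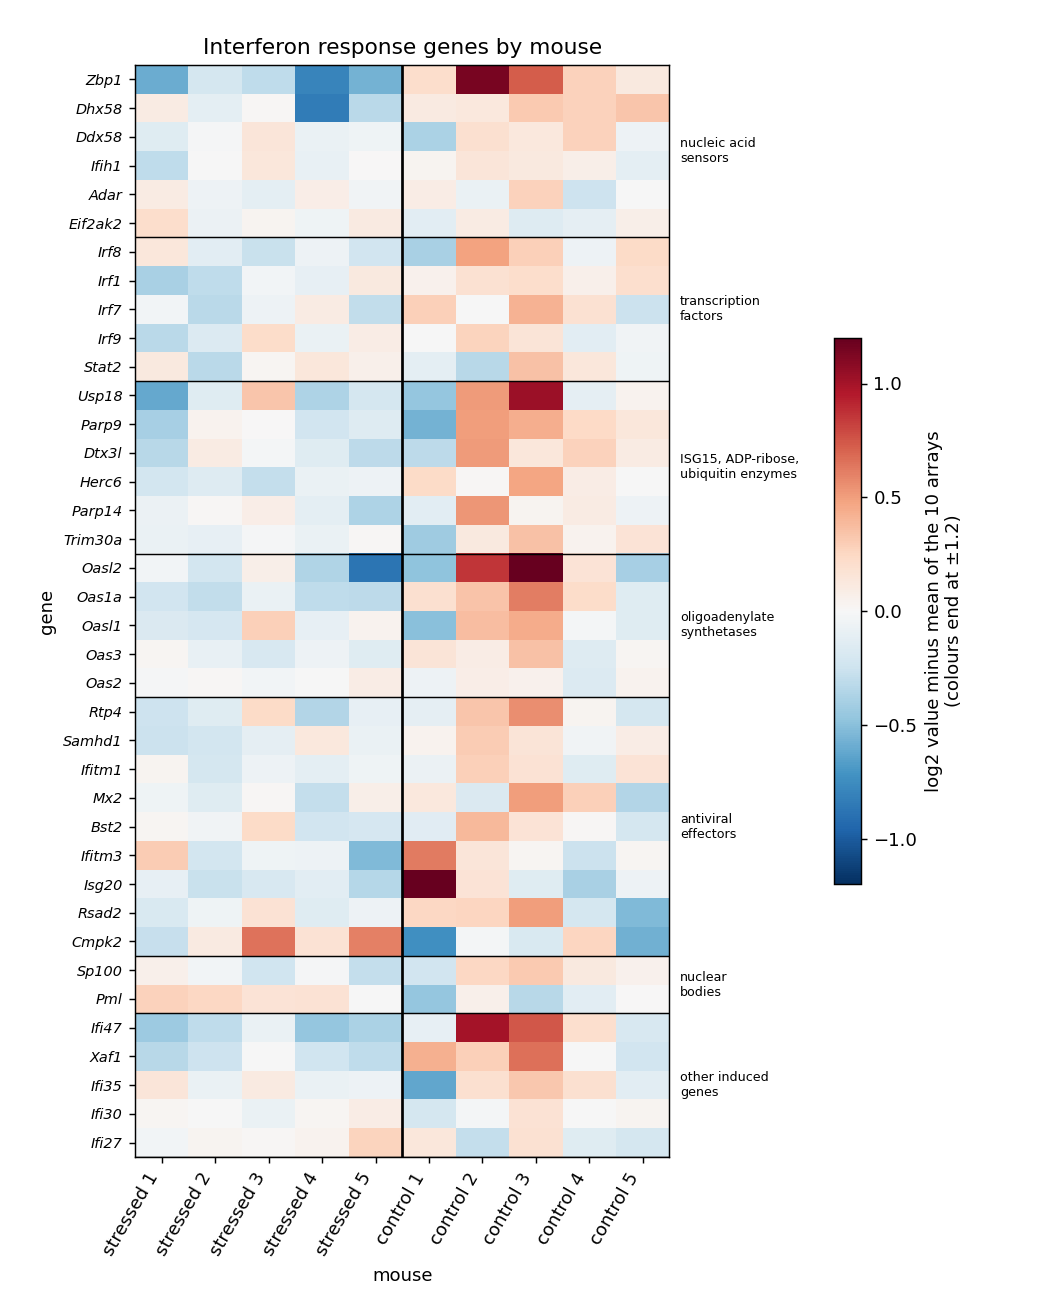
Log2 value of each tested member (rows, by role) in each mouse (columns, stressed on the left) minus the gene's mean over the 10 arrays, with colours that end at ±1.2. Control mice 2 and 3 are above the mean in 31 and 34 of the 38 members, and stressed mice 2 and 4 in 7 and 8.

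The 6 tested members with the ISRE core in the window, printed above, had differences from -0.50 to -0.02 without control mouse 1, with a median of -0.15, and all 6 were below 0. The 23 tested members whose window lacked these letters ran from -0.77 to 0.38 with a median of -0.19, and 19 of them were below 0. With all arrays the medians were -0.10 and -0.20, and 5 of the 6 and 18 of the 23 were below 0. The ranges of members with and without the letters thus overlapped. Promoters of Zbp1, Parp9, Usp18 and Dhx58 were not among the sequences used here.

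Upstream of these genes, the ligands and receptors of the pathway gave no gene called by limma in either comparison, and without control mouse 1 an unadjusted p under 0.05 was reached by 0 of 5 ligands and by 2 of 11 receptor and signalling genes. These were Socs3, which was lower, as were 6.56% of all genes, and Jak2, which was higher, as were 11.4%, so the share was near that of all genes. Of 21 listed interferons, 10 had a probe set with their symbol alone and 5 lay above the filter, and Ifng, the gene of interferon gamma, lay far below it at 1.97 to 2.54 in stressed and 2.25 to 2.67 in control mice. Ifnb1, the gene of interferon beta, was at 3.82 to 4.23 in stressed and 4.03 to 5.17 in control mice, near the filter floor. The highest value of Ifnb1, 5.17, was that of control mouse 3. Ifnlr1, the specific chain of the type III interferon receptor, differed by 0.17 ± 0.10 (SE) and Ifnar1, of the type I receptor, by 0.08 ± 0.08 (SE) without control mouse 1, and by 0.22 and 0.10 with it. Of 11 tested receptor and signalling genes, 3 had a difference below 0 in both comparisons, and of 11 tested genes that induce interferon, 6 did without control mouse 1 and 5 with it. Socs3, a feedback inhibitor of cytokine receptors, differed by -1.43 ± 0.36 (SE; limma adjusted p = 0.0829) with control mouse 1 left out and by -0.81 ± 0.62 (SE; limma adjusted p = 0.798) with it. Jak2 differed by 0.23 ± 0.09 (SE) and 0.30 ± 0.11 (SE).

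Most interferon-induced genes outside the list also had a difference below 0, and whether they differ from the list was not tested. Of 11 tested interferon-induced GTPases, 11 had a difference below 0 without control mouse 1, with a median of -0.32, and 0 were called in limma, with 5 lower at an unadjusted p under 0.05, where 43.8% of all genes were below 0 and 6.56% lower at that p. With all arrays 10 of the 11 were below 0, with a median of -0.25, and 0 were lower at an unadjusted p under 0.05. Of 5 tested Ifit genes, 4 were below 0 in both comparisons, with medians of -0.21 and -0.22, and Ifit1bl2 was at 0.05 and 0.14. Ifit1bl1 was the one called, with a difference of -1.24 ± 0.22 (SE; limma adjusted p = 0.0330) in the 9 arrays and -1.38 ± 0.24 (SE; limma adjusted p = 0.252) in all 10. In Ifit1bl1 control mouse 1 was the highest array, at 11.32, unlike its place in most members. Of the 3 interferon-induced chemokines, which draw in T cells, Cxcl9 differed by -1.39 ± 0.34 (SE; limma adjusted p = 0.0775) with control mouse 1 left out and by -1.02 ± 0.45 (SE; limma adjusted p = 0.623) with it. Cxcl10 was at -0.48 and -0.32 and Cxcl11 at 0.14 and 0.21 in the same comparisons.

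Markers of the cell types that the tissue could hold were read in the same arrays, and none of these sums was tested. The T cell list, with 6 of 8 markers above the filter, had a summed linear signal of 307 to 322 in stressed and 339 to 480 in control mice, with Cd8b1 and Cd2 under the filter. Of these 6 markers, 5 had a difference below 0 in both comparisons. The other, Cd4, was higher, at 5.71 to 5.95 in stressed and 5.61 to 5.84 in control mice. Cd8a overlapped, at 5.20 to 5.75 in stressed and 5.35 to 5.77 in control mice. For the B and plasma cell list, 6 of 6 above the filter, the sums were 2719 to 4261 in stressed mice, 5258 to 7931 in the other 4 controls and 1684 in control mouse 1. The pan-leukocyte markers, whose sums are given above, were 5 of 5 above the filter, and all 5 had a difference below 0 in both comparisons. The sums of stressed mice lay below those of all controls for T cells. They lay below those of the controls other than control mouse 1 for B and plasma cells and for leukocytes as a whole, whose lowest sum there was 1400. The B and plasma cell sum is mostly Jchain, and Ms4a1 overlapped, at 4.04 to 4.51 in stressed and 3.95 to 6.81 in control mice. The mean log2 value of that list was 5.99 to 6.46 in stressed mice and 6.59 to 7.71 in controls other than control mouse 1, which was at 5.50. All 6 of its markers had a difference below 0 in both comparisons. Macrophage and dendritic cell markers, 8 of 9 above the filter with Xcr1 under it, summed to 5127 to 5712 in stressed mice and 5266 to 6385 in controls other than control mouse 1, which was at 2475. On the array, the list for plasmacytoid dendritic cells held Siglech, Tcf4, Clec10a, Ly6d and Bcl11a, 5 of 5 above the filter. They summed to 570 to 688 in stressed and 551 to 699 in control mice. These sums overlapped between the groups. The sum of that last list is mostly Tcf4, and whether the list reads plasmacytoid dendritic cells in this tissue was not tested. The mean log2 value of its markers was 6.15 to 6.34 in stressed and 6.29 to 6.47 in control mice. Of these 5 markers, 2 had a difference below 0 without control mouse 1 and 4 with it. The macrophage and dendritic cell sum is mostly Lyz2, and the mean log2 value of the same markers was 6.75 to 6.87 in stressed mice and 6.91 to 7.17 in controls other than control mouse 1, with no overlap, and 6.63 in that mouse. The low sum of control mouse 1 follows Lyz2, at 10.06 there and 11.91 to 12.20 in the other arrays. Itgam was also lowest in that mouse, whereas Cd68, Adgre1 and Flt3 were highest in it. Of the 8 markers above the filter, 7 had a difference below 0 without control mouse 1 and 6 with it. Epithelial markers of the small intestine, 9 of 9 above the filter, summed to 71335 to 83542 in stressed mice, 70933 to 76877 in the other 4 controls and 28286 in control mouse 1. Smooth muscle markers, 5 of 5 above the filter, summed to 9978 to 16835 in stressed and 10837 to 22011 in control mice, with control mouse 1 on top. Stressed mice and the other controls also overlapped in these 2 lists. Large intestine markers, 3 of 7 above the filter, summed to 1409 to 12450 in stressed mice, with stressed mouse 4 on top, and to 1333 to 1450 in controls other than control mouse 1, which was at 20725.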

How the data were processed

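The authors deposited 1 table of log2 values for 45101 probe sets on 10 arrays, made with RMA per the submitters' processing notes. The sources used here do not name the RMA software or the log base, which was taken as 2 from the usual RMA output and the range of 1.22 to 14.4. RMA gives all arrays a common distribution, so a shift of all transcripts cannot be seen, and differences of dim genes are understated. Array medians lay between 4.78 and 4.82, and the correlation across genes was 0.975 to 0.995 among 9 arrays and 0.918 to 0.947 between control mouse 1 and them. The number of arrays limits the precision.

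Groups came from the titles. The 64 control probe sets and the lowest 40 percent by mean were left out. Of the probe sets, 34945 carried 1 platform symbol, 932 several and 9160 none. Each gene took its probe set with the highest mean. Groups were compared with limma 3.58.1 (lmFit and eBayes) in R 4.3.3, with Benjamini-Hochberg adjustment over 13666 genes and calls at an adjusted p under 0.05. The fit was also run on simulated data with independent noise, sized without control mouse 1. No array deviated there, so that run does not cover the effect of control mouse 1 on the calls. Differences are in log2 units, stressed minus control, each with a standard error. Marker sums add 2 to the power of the log2 values of the markers with a single-symbol probe set.

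Full statistics were given for called members and the 8 members with the smallest p in each comparison, and values by mouse also for up to 2 further members of each role with the highest mean and for members whose groups do not overlap. The values by mouse of Usp18, Cmpk2 and Rsad2 were added after their values were seen. Members, lists and rules were chosen with earlier results of these data known. The alternatives were other filters, other ways to choose a probe set, array centring, array weights, a trended robust prior, a replicate block and leaving out each mouse. The labels describe no pairing, and the deviations of same-numbered mice had correlations of -0.30 to 0.28, so the numbers were not taken as pairs. That check had no reference from differently numbered mice and cannot exclude a pairing.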

Additional observations from a re-analysis of the deposited data

Results flagged for a closer look

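In 76 sets of 5 mice (38 members in 2 groups), 3 held a mouse far from the other 4 by Dixon's ratio at a critical value of 0.71, and chance alone gives about 1 in 20. Stat2 in stressed mouse 2 was at 4.41, against 4.76 to 4.87 in the other stressed mice. Ifi27 was at 8.99 in stressed mouse 5, against 8.68 to 8.77 in the others. Xaf1 was at 7.13 in stressed mouse 3, against 6.80 to 6.89 in the others.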

How the results depend on the processing

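Zbp1, Parp9, Dtx3l, Oas1a, Ifi47, Herc6, Irf1, Irf8, Dhx58, Xaf1, Sp100 and Pml kept the sign of their difference in every alternative run, in both comparisons. The call of Zbp1 did not hold as widely: without control mouse 1 it was called in 10 of 16 alternatives, with adjusted p of 0.0136 to 0.0969, and it was lost when control mouse 2, control mouse 3 or stressed mouse 1, 3, 4 or 5 was also left out. With all arrays, genes called numbered 41 with array weights, 2 with arrays centred and 2 with the mean of a gene's probe sets, and members lower at an unadjusted p under 0.05 numbered 13 with array weights. Without control mouse 1, genes called numbered 242 with arrays centred and 169 with a trended robust prior, and members called numbered 2 with arrays centred (Zbp1 and Parp9) and 2 with the mean of probe sets (Zbp1 and Herc6). The cause of these shifts was not tested. Leaving out 1 mouse at a time from all arrays gave 0 to 109 genes called, 0 to 1 members called, 27 to 32 members below 0 and 7 to 15 lower at an unadjusted p under 0.05. The upper value of 109 genes, and the 1 member, came from leaving out control mouse 1. From the 9 arrays it gave 6 to 154 genes called, 0 to 3 members called, 29 to 33 members below 0 and 11 to 19 lower at an unadjusted p under 0.05. The 6 genes were those without stressed mouse 4, and the 3 members, without control mouse 5, were Zbp1, Oas1a and Ifi47. Replicate numbers were not taken as pairs in the main fits. With the replicate block, 0 genes and 0 members were called from all arrays. Of the members, 30 were then below 0 and 12 lower at an unadjusted p under 0.05. The same block called 95 genes and 1 member from the 9 arrays, with 33 members below 0 and 14 lower at that p. Members near 0 changed sign. With all arrays, Ddx58 was at 0.1150 with the mean of probe sets. Centring gave -0.0287 for Stat2, -0.0094 for Oas2, -0.0146 for Ifi30 and -0.0181 for Ifi35, and array weights gave 0.0206 for Adar, 0.1255 for Rsad2, -0.0240 for Ifi30 and -0.0656 for Ifi35. Without control mouse 1, the mean of probe sets gave 0.0777 for Ddx58 and -0.0677 for Adar, centring gave -0.0619 for Adar and -0.0557 for Oas2, array weights gave 0.1300 for Rsad2 and the replicate block gave -0.0248 for Adar. Leaving out 1 mouse at a time from all arrays gave -0.1619 to 0.0012 for Ddx58, -0.0817 to 0.0490 for Adar, -0.0803 to 0.0921 for Stat2, -0.0156 to 0.0451 for Oas2, -0.1928 to 0.0448 for Oasl1, -0.2524 to 0.0062 for Rsad2, -0.0340 to 0.0620 for Ifi30 and -0.1399 to 0.0965 for Ifi35. From the 9 arrays it gave -0.0747 to 0.0994 for Adar, -0.1453 to 0.0847 for Stat2, -0.0463 to 0.0346 for Oas2, -0.2375 to 0.1073 for Rsad2, -0.2000 to 0.0095 for Ifitm3 and -0.0570 to 0.0088 for Ifi30. Oas3, Dhx58, Stat2, Mx2 and Sp100 were the 5 tested members with the lowest means, and signal over background was not tested. In all, 30 of the members stayed when the lowest 60 percent of probe sets were left out.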
